A study of Ovis aries with 16 samples.

Results

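The genes described here are 8 transcription factors that govern gene expression in hepatocytes: HNF4A, FOXA1, FOXA2, FOXA3, ONECUT1, ONECUT2, CEBPA and PROX1. They were taken by symbol from a table of 28524 rows, and all 8 were present. The set was chosen on measured values of these same libraries as well as on known roles, and the record does not say which values were used. Every contrast is therefore treated as one that may have been used, and the values of the 8 genes are given as a description, with SE but with no test. The libraries came from liver and from vastus lateralis, a thigh muscle, of 8 female Suffolk sheep. The 4 control sheep were born to mothers injected with the corn oil vehicle. The mothers of the other 4 received bisphenol A (BPA), a plasticizer with oestrogen-like activity, subcutaneously at 0.5 mg/kg per day from gestation day 30 to 90. Both groups of daughters gave 1 liver and 1 muscle library each, taken at an age of about 21 months, late in the follicular phase of a cycle that had been synchronized, and after 48 h without food. Sheep are named by their number in the labels: 902, 908, 924 and 928 are controls and 910, 918, 977 and 984 had prenatal BPA. Values are normalized read counts, that is reads divided by 1 scaling factor per library. They compare 1 gene between libraries, and no gene length is divided out, so levels are not compared between genes.

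Hepatocyte identity is held by a small network of factors that bind one another's genes. FOXA proteins are pioneer factors that open liver enhancers, HNF4A is a nuclear receptor that maintains most hepatocyte-specific transcription, and C/EBP alpha, encoded by CEBPA, drives metabolic genes of the mature cell. ONECUT1 (also called HNF6) and ONECUT2 share a cut domain and a homeodomain and act in hepatocyte and bile duct development, and PROX1 is a homeobox factor of both hepatocytes and lymphatic endothelium that also occurs in muscle fibres.

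Liver libraries held 4391896 to 19283871 recovered reads and muscle libraries 15147803 to 28540671. Markers bore out the tissue labels: the summed count of 11 muscle fibre genes was 3086352 to 4189508 in muscle and 371 to 690 in liver. None of 16 hepatocyte markers was at 0 in any liver. In hepatocyte markers and ribosomal protein genes the livers did not divide by treatment. Medians of 3 other marker lists did, on the log2 scale against the mean of the 8 livers. Macrophage markers were at 0.69 to 1.48 in controls and -2.12 to 0.58 after BPA. Lymphatic endothelial markers were at 0.49 to 1.10 and -0.83 to -0.07, and fibroblast and stellate markers at 0.10 to 3.40 and -1.18 to 0.03. Cholangiocyte and endothelial medians overlapped. In control liver 902, which had the fewest reads, the median hepatocyte marker was at -2.89 on the log2 scale against the mean of the 8 livers. It was at 1.14 to 1.35 in control livers 908, 924 and 928 and in BPA liver 910, and at -0.90 to -0.28 in BPA livers 918, 977 and 984. The median of 77 cytosolic ribosomal protein genes was at 1.2 to 1.4 in the same 4 livers, at 0.01 in 902, and at -2.04 to -1.41 in 918, 977 and 984. Control 902 also stood apart in connective tissue genes: the summed count of 14 fibroblast and stellate markers was 120591 in it, 8362 to 11604 in the other controls and 3527 to 7881 in the BPA livers. The BPA differences of the factors, gene lists and other named genes in liver are therefore given with and without 902 and 910. The part of these marker differences in them was not tested. Since 902 and 910 were singled out by values of these same libraries, calls without them are a description. The controls left in that fit had 17932482 to 19283871 reads and the BPA livers 4664209 to 10637935. Treatment and read total cannot be told apart there. In bulk tissue, fewer cells of a type and less RNA per cell cannot be told apart.

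All 8 factors were higher in liver than in muscle, with no muscle library above any liver library for any of them. ONECUT1 differed most, by 7.37 (SE 0.342) on the log2 scale, followed by ONECUT2 at 7.30 (SE 0.138) and FOXA2 at 7.09 (SE 0.463). HNF4A differed by 6.82 (SE 0.327), FOXA1 by 6.41 (SE 0.469) and FOXA3 by 5.17 (SE 0.456). PROX1 and CEBPA, which have known roles outside the liver, differed least, by 3.95 (SE 0.181) and 3.74 (SE 0.350). These differences come from limma, a linear model with shared variance, on log2(value + 1), which understates the difference of the factors that are near 0 in muscle. Their order depends on the method: with DESeq2, a count model, FOXA2 was at 7.50, ONECUT1 at 7.39 and ONECUT2 at 7.33. Calls use a Benjamini-Hochberg (BH) adjusted p under 0.05, and by this rule all 8 were called higher in liver, against 36.1% of the 15995 genes tested. The factors were named as liver-enriched, so nothing is read from that count. Among 24 tested regulators outside the set, 18 were called higher in liver and 3 lower, with a median of 3.19 against 0.06 over all genes. CREB3L3, a membrane-bound factor of fasting metabolism, was higher by 7.62 (SE 0.222, adjusted p = 4.1e-14), and ESRRA, an oxidative metabolism receptor, was lower by 1.28 (log2 difference -1.28, SE 0.301, adjusted p = 0.00122).

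**Figure D1:**
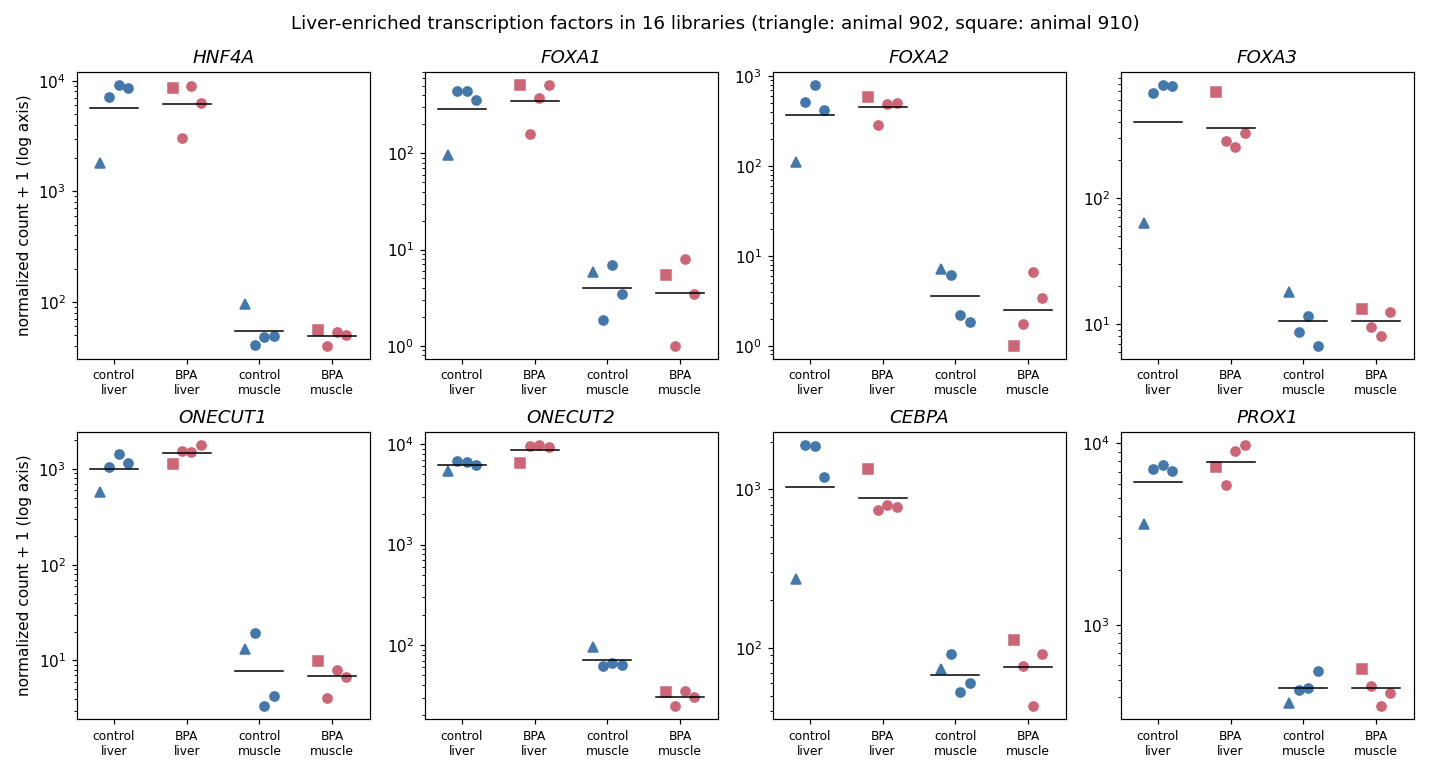
Normalized count + 1 (log axis, scaled separately for each gene) of the 8 factors in each of the 16 libraries, 4 per group, with the mean on the log scale as a line; the triangle is sheep 902 and the square sheep 910. Every liver library lies above every muscle library, control liver 902 is the lowest liver for all 8 factors, and ONECUT2 has separate control (61.5 to 95.0) and BPA (23.8 to 33.7) muscle libraries.

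HNF4A measured 1809, 7052, 9155 and 8628 in control livers 902, 908, 924 and 928, and 8550, 3019, 8910 and 6293 in BPA livers 910, 918, 977 and 984. The low values were those of 902 and 918, 1 in each group, and the groups overlapped, with means of 6661 ± 3356 (SD, n = 4) in controls and 6693 ± 2709 after BPA. The log2 difference (BPA minus control) was 0.13 (SE 0.604). In muscle HNF4A was 95.0, 39.6, 46.9 and 48.2 in the controls and 54.6, 39.1, 51.9 and 49.5 after BPA, from 37 to 78 recovered reads per library. Apart from control 902 the muscle values lay between 39.1 and 54.6 in both groups, and the difference was -0.16 (SE 0.256).

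The FOXA factors share a forkhead domain. FOXA1 was 94.2, 448, 442 and 354 in control livers and 513, 156, 376 and 507 after BPA. FOXA2 was 109, 516, 799 and 419 in controls and 584, 283, 495 and 497 after BPA. For both, the lowest library was control 902 and the next lowest BPA 918, the same order as for HNF4A, and the groups overlapped with differences of 0.30 (SE 0.569) for FOXA1 and 0.27 (SE 0.560) for FOXA2. FOXA3 was 62.2, 684, 786 and 767 in control livers and 686, 283, 252 and 324 after BPA, so that BPA liver 910 stood with the 3 higher controls and the other 3 BPA livers stood between them and control 902. The difference was -0.18 (SE 0.775), and the highest liver exceeded the lowest 12.6-fold, against 5.44-fold for FOXA1 and 7.31-fold for FOXA2. In muscle the family was near its detection limit: FOXA1 had 0 to 5 reads per library, FOXA2 0 to 6 and FOXA3 5 to 14, where a count of 0 allows up to 3 reads. Their means over the 8 muscles were below 10, the minimum for a fit.

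CEBPA measured 271, 1903, 1868 and 1204 in control livers and 1353, 739, 802 and 774 after BPA. As for FOXA3, BPA livers 918, 977 and 984 lay together, below BPA 910 and below controls 908, 924 and 928, and control 902 was lowest. Group means were 1312 ± 764 in controls and 917 ± 292 after BPA, and the difference was -0.23 (SE 0.590). In muscle CEBPA, which adipocytes also express, was 73.1, 90.2, 51.6 and 58.9 in controls and 111, 76.0, 42.1 and 90.8 after BPA. These ranges overlapped, with a difference of 0.17 (SE 0.281). Beside it, 7 of 9 adipocyte markers were higher and 2 lower in BPA muscle, none of them called, and the part of these markers in the CEBPA values was not tested.

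PROX1 was 3610, 7216, 7617 and 7077 in control livers and 7424, 5917, 9122 and 9774 after BPA. Apart from control 902 the controls spanned 7077 to 7617, with BPA 910 inside that span, 918 below it and 977 and 984 above it. The difference was 0.37 (SE 0.403). PROX1 in muscle was 374, 438, 451 and 558 in controls and 575, 463, 358 and 420 after BPA, with almost equal means of 455 ± 76.6 and 454 ± 91.5 and a difference of -0.01 (SE 0.155). Of 8 lymphatic endothelial markers, 7 were lower and 1 higher in BPA liver, with a median of -1.66 against -0.01 over all genes and none called. In LYVE1, a hyaluronan receptor of lymphatic and sinusoidal endothelium, the groups did not overlap, as in 7.61% of all genes tested. LYVE1 measured 519 ± 159 in control and 88.7 ± 53.8 in BPA liver (log2 difference -2.66, SE 0.429, adjusted p = 0.256). With livers 902 and 910 left out, 43.1% of all genes were called. In that fit 5 of 6 tested lymphatic markers were called lower, and LYVE1 was at -2.88 (SE 0.328, adjusted p = 0.000597). PROX1 had positive differences in both fits.

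The ONECUT pair had its higher values in BPA livers. ONECUT1 was 573, 1044, 1419 and 1148 in control livers and 1113, 1547, 1487 and 1771 after BPA. BPA livers 918, 977 and 984 lay above every control, and 910 lay among the controls. Means were 1046 ± 353 and 1479 ± 273, and the difference was 0.55 (SE 0.341). ONECUT2 was 5444, 6850, 6599 and 6140 in control livers and 6492, 9636, 9758 and 9416 after BPA. The same 3 BPA livers formed a tight cluster between 9416 and 9758, above a control range of 5444 to 6850 that also held 910. Means were 6258 ± 617 and 8825 ± 1562, with a difference of 0.48 (SE 0.353). ONECUT2 spanned 1.79-fold over the 8 livers, a range smaller than that of all but 5.88% of the 15689 genes tested, whose median range was 1.99 on the log2 scale. PROX1 spanned 2.71-fold, ONECUT1 3.09-fold, HNF4A 5.06-fold and CEBPA 7.01-fold, and the FOXA factors 5.44-fold to 12.6-fold as given above.

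**Figure D2:**
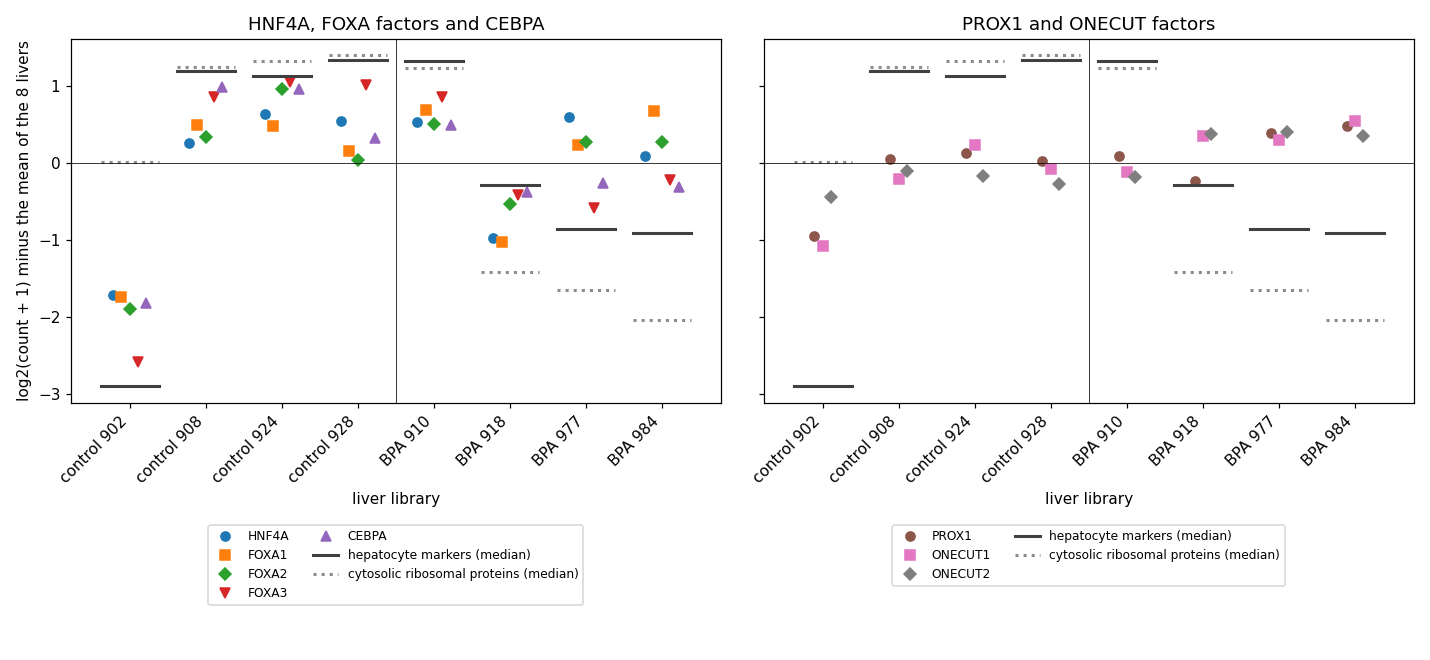
Log2(count + 1) of each factor in each liver library minus its mean over the 8 livers, with the median of 16 hepatocyte markers (solid bar) and of 77 cytosolic ribosomal protein genes (dotted bar) in the same library. All 8 factors are lowest in control 902, as are the hepatocyte markers, and ONECUT1 and ONECUT2 are highest in BPA 918, 977 and 984, where the ribosomal protein median is at -2.04 to -1.41.

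In BPA livers 918, 977 and 984, FOXA3 and CEBPA were below their mean over all livers and ONECUT1 and ONECUT2 above it, within the same libraries. CEBPA and FOXA3 were low in these livers, so higher ratios of ONECUT2 to them follow from the values above. The ratio of ONECUT2 to CEBPA does not depend on the scaling factor of the library. It was 20.1 in control 902, the lowest liver for both genes, and 3.60, 3.53 and 5.10 in the other controls. In BPA 910 it was 4.80, and in BPA 918, 977 and 984 it was 13, 12.2 and 12.2. ONECUT2 over FOXA3 divided the livers in the same way, at 87.6 in control 902, 8.0 to 10.0 in the other controls, 9.47 in BPA 910 and 29.0 to 38.7 in the other BPA livers. The division was narrow for other factors. ONECUT2 over PROX1 was 0.963 in BPA 984 and 0.949 in control 908, and over FOXA1 it was 18.6 in BPA 984 and 17.3 in control 928. ONECUT2 over ONECUT1 stayed between 4.65 and 9.50 in all 8 livers. The 4 livers with the higher ratios to CEBPA and FOXA3 are the 4 with the lower hepatocyte marker medians and the lower read totals (4391896 to 10637935 against 17923942 to 19283871), and the part of either in the ratios was not tested.

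Across the 4 against 4 livers, none of the 8 factors was called by limma, where 0% of 15689 genes were called (2838 at an unadjusted p under 0.05). The quasi-likelihood test of edgeR on recovered reads called 0 genes, and DESeq2 called 196, with no factor of the set among them. No factor had separate groups, against 7.61% of genes that did. The direction of HNF4A, FOXA1 and FOXA2 turned on single libraries: without control 902 the differences were -0.42, -0.23 and -0.31. Without both 902 and 910, 43.1% of 15296 genes were called, and 3 factors were among them, FOXA3 at -1.38, CEBPA at -1.07 and ONECUT2 at 0.56. In that fit HNF4A was at -0.57, FOXA1 at -0.41, FOXA2 at -0.44, ONECUT1 at 0.42 and PROX1 at 0.15. Markers of other liver cells moved beside them: all 14 fibroblast and stellate markers and all 10 macrophage markers had lower means in BPA liver on the log2 scale (medians -1.72 and -1.69, none called). Without 902 and 910 all 14 and 9 of 10 were lower (medians -1.31 and -2.59), with 11 and 9 called, and their part in the values of the 8 factors was not tested. ONECUT1, ONECUT2 and PROX1 had positive differences in all 16 alternatives in liver, with ONECUT2 between 0.42 and 0.62.

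**Figure D3:**
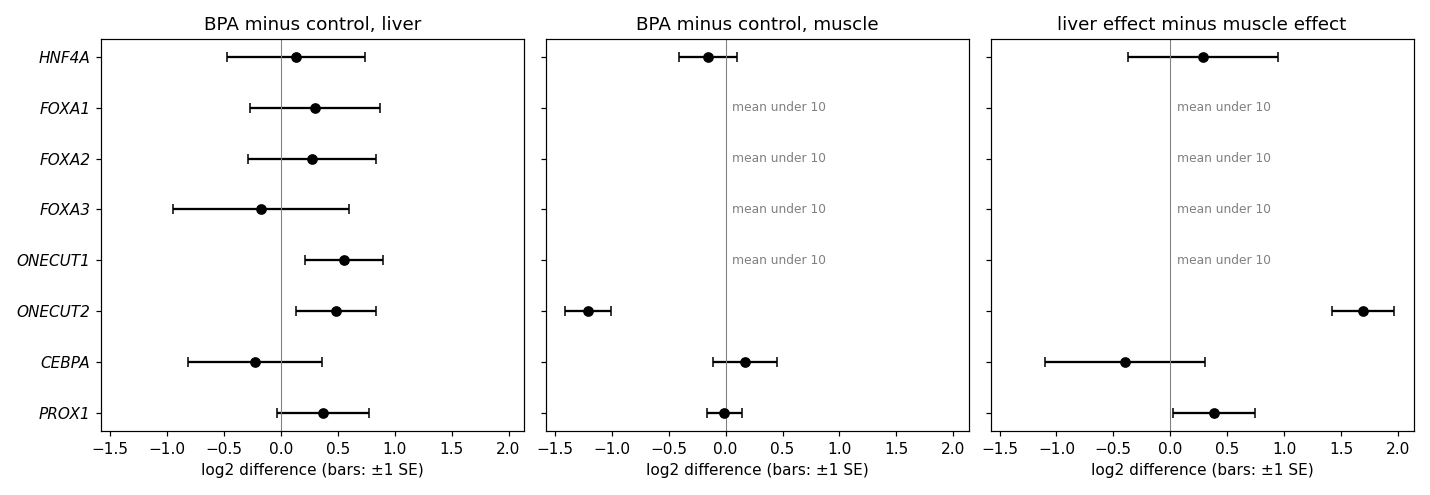
Log2 difference of each factor with its SE (bars) for BPA against control in liver, BPA against control in muscle, and the liver difference minus the muscle difference, from limma on log2(value + 1) with 4 sheep per group. Factors with a mean below 10 in muscle have no estimate there; ONECUT2 is at 0.48 in liver, -1.21 in muscle and 1.69 for the difference between them, and the other estimates lie between -0.40 and 0.55.

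ONECUT2 was the factor that stood apart in muscle. It measured 95.0, 61.5, 65.7 and 63.0 in control muscle and 33.4, 23.8, 33.7 and 29.2 in BPA muscle, from 56 to 78 and from 24 to 36 recovered reads per library. The lowest control, at 61.5, was above the highest BPA library, at 33.7, and control 902 was higher than the other 3 controls. Means were 71.3 ± 15.9 and 30.0 ± 4.64, and the difference was -1.21 (SE 0.200), which is 2.31-fold lower on this scale. It stayed between -1.27 and -1.07 over 15 alternatives, among them leaving out each of the 8 libraries. Its range over the 8 muscles, 1.95 on the log2 scale and including the gap between groups, was larger than that of 94.5% of 14706 genes. CEBPA and HNF4A, which also had few reads in muscle, exceeded 85.8% and 82.4% of genes, and PROX1 53.5%. Read numbers in muscle were far below those in liver, so the ranks of the tissues are not compared. ONECUT1 in muscle rested on 2 to 22 reads per library and did not divide the groups: 12.2, 18.5, 2.35 and 3.27 in controls and 8.91, 3.07, 7.02 and 5.67 after BPA.

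Of the 4 factors tested in muscle, limma called none, against 0.129% of 14706 genes (19 genes, and 1142 at an unadjusted p under 0.05), and edgeR also called 19. Separate groups were found for 1 of the 4, ONECUT2, against 4.53% of genes. ONECUT2 was called in 2 of 15 alternatives: by DESeq2, which called 0.891% of genes, and by limma after TMM scaling, which called 0.143%. Neither edgeR nor any fit leaving out 1 library called it. Since ONECUT2 was chosen with such values known, these counts are given beside the background without a reading.

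Hepatocyte genes were detected at a low level in every muscle library. The summed count of 16 hepatocyte markers was 12572 to 18350 in control muscle and 5968 to 11938 in BPA muscle, with none of the 16 at 0 in any library. All 16 were lower after BPA, against 50.5% of all genes tested. Separate groups were found for 6, against 4.53% of genes, and limma called 3, against 0.129%. These 3 were FGA, FGB and FGG, which encode the chains of fibrinogen, the clot-forming plasma protein, at -1.2 (SE 0.106, adjusted p = 0.000618), -1.35 (SE 0.130, adjusted p = 0.000896) and -1.31 (SE 0.120, adjusted p = 0.000741). The separation of the sums rested on these 3 chains, which made up 4616 to 5311 of the control sums and 1820 to 2623 of the BPA sums. The sum of the other 13 markers was 7907 to 13408 in controls and 4149 to 9315 after BPA, with BPA muscle 910 among the controls. The median marker, as used for the livers, also overlapped: it was at 0.23 in BPA muscle 910, inside the control range of 0.11 to 0.80. Both of these comparisons were chosen after seeing the data. The marker sum in muscle was 1.2% of that in liver in controls and 1.17% after BPA, but 0.914% without control liver 902 and 2.07% without BPA liver 910. ONECUT2 in muscle was 1.14% of its liver level in controls and 0.340% after BPA, and 1.09% and 0.313% without those livers. Over all livers, HNF4A gave 0.862% and 0.729%, while CEBPA gave 5.22% and 8.73% and PROX1 7.14% and 5.63%. Per 1000 counts of hepatocyte markers, ONECUT2 was 5.18, 4.49, 5.23 and 4.76 in control muscle and 2.80, 3.99, 4.07 and 3.57 in BPA muscle, so the groups stayed separate but by less. With the fibrinogen chains left out it was 7.08 to 8.26 in controls and 3.59 to 5.73 after BPA. HNF4A on the scale of all 16 markers was 2.89 to 5.18 in controls and 4.57 to 6.56 after BPA, higher in most BPA libraries but with overlap. The part of hepatocyte transcripts in the ONECUT2 values of muscle was not tested.

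**Figure D4:**
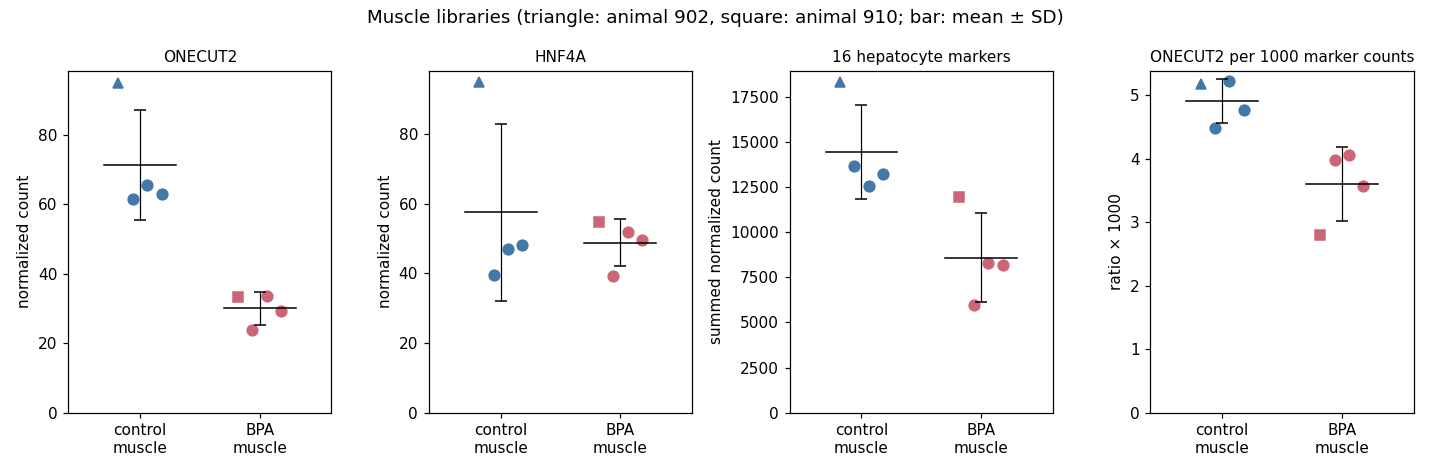
From left to right, the normalized count of ONECUT2, that of HNF4A, the summed count of 16 hepatocyte markers, and ONECUT2 per 1000 counts of those markers, in the 4 control and 4 BPA muscle libraries (points), with mean and SD; the triangle is sheep 902 and the square sheep 910. ONECUT2 and the marker sum have separate groups, though the sum does not once FGA, FGB and FGG are left out; HNF4A overlaps, and the ratio is 4.49 to 5.23 in controls and 2.80 to 4.07 after BPA.

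The BPA difference of ONECUT2 had opposite signs in the tissues, 0.48 in liver and -1.21 in muscle, and the difference between them was 1.69 (SE 0.275). It was between 1.48 and 1.89 when each sheep was left out in turn. PROX1 gave 0.38 (SE 0.361), HNF4A 0.29 (SE 0.654) and CEBPA -0.40 (SE 0.70). None of these 4 was called by limma, and 0% of 13677 genes were (2661 at an unadjusted p under 0.05), nor did edgeR call any gene. ONECUT2 was called in 2 of 15 alternatives: by DESeq2, with 1.08% of genes, and by limma without sheep 910, with 22.1%. Leaving out control 902 changed HNF4A to -0.53.

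No tested target of these factors passed the limma test for BPA over all libraries of either tissue. Of 23 HNF4A targets outside the set, 9 were higher and 14 lower in BPA liver, with a median of -0.27 and none called. FABP1, a cytosolic fatty acid carrier, had -1.47 (SE 1.0, adjusted p = 0.419), and NR1I3, the xenobiotic receptor CAR, had 1.09 (SE 0.376, adjusted p = 0.256). Of 11 FOXA targets 6 were higher and 5 lower (median 0.02), and of 11 C/EBP alpha targets 4 were higher and 7 lower (median -0.33). Only 4 ONECUT targets could be tested in liver, 2 in each direction. PFKFB1, which encodes a bifunctional enzyme that sets fructose 2,6-bisphosphate levels, had the smallest p of these, at 500 ± 81.2 in control and 1432 ± 562 in BPA liver (1.42, SE 0.366, adjusted p = 0.256). Without 902 and 910 it was at 1.76 (SE 0.232, adjusted p = 0.00103). Its groups over all livers did not overlap, as in 7.61% of all genes tested, with 386 to 559 in controls and 670 to 2018 after BPA. In muscle it measured 641 ± 129 and 671 ± 117. The transthyretin gene TTR, on all 4 target lists, had -1.2 (SE 1.40, adjusted p = 0.644) in liver. Without 902 and 910, where 43.1% of all genes were called, 15 of 23 HNF4A targets were called lower and 2 higher (median -1.30), 6 of 11 FOXA targets lower and 0 higher (median -0.79), and 8 of 11 C/EBP alpha targets lower and 0 higher (median -1.84). Of the 4 ONECUT targets 2 were called lower and 1 higher (median -0.47). In that fit TTR was at -3.56 (SE 0.252, adjusted p = 0.00021), FABP1 at -3.10 (SE 0.301, adjusted p = 0.000342) and NR1I3 at 1.13 (SE 0.340, adjusted p = 0.0293). In muscle 3 of 23 HNF4A targets were higher and 20 lower (median -0.48), all 10 FOXA targets were lower (median -0.70), and 1 of 11 C/EBP alpha targets was higher and 10 lower (median -0.61). None was called, and the median over all genes in muscle was -0.002. These lists share genes with each other and with the hepatocyte markers above.

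Other regulators of the liver were described beside the 8. In liver 16 of 24 were higher and 8 lower after BPA, with a median of 0.30 against -0.01 over all genes and none called. NR1H4, the bile acid receptor FXR, was 563 ± 174 in control and 1699 ± 1121 in BPA liver (1.43, SE 0.468, adjusted p = 0.256). CEBPG, a C/EBP family partner that lacks its own activation domain, was 336 ± 25.7 and 182 ± 85.1 (log2 difference -1.0, SE 0.349, adjusted p = 0.256), and it is the next gene to CEBPA in the RefSeq order. Without 902 and 910, 4 of 24 regulators were called higher and 5 lower (median 0.06), against 43.1% of all genes called in either direction. In that fit NR1H4 was at 1.56 (SE 0.353, adjusted p = 0.00961) and CEBPG at -1.30 (SE 0.285, adjusted p = 0.00843). ONECUT factors also act in bile duct formation. Of 13 cholangiocyte markers 2 were higher and 11 lower in BPA liver (median -1.13, none called), KRT19 being at 286 ± 310 in control, where 902 had the highest value, and 23.7 ± 13 in BPA liver (log2 difference -3.10, SE 0.854, adjusted p = 0.256). Without 902 and 910 KRT19 was at 140 ± 128 and 21.2 ± 14.7 (log2 difference -2.63, SE 0.790, adjusted p = 0.0292). In that fit 6 of 12 cholangiocyte markers were called lower and 1 higher, beside the same 43.1% of all genes. The summed counts of the 13 were 16432 in control 902 and 4897 to 6331 in the other controls. SPP1 alone was at 11527 in 902 and at 8.53 to 48.3 in the other controls. The median marker was at -0.06 in 902 and at 0.12 to 0.84 in those controls. The sums were 4970 in BPA liver 910 and 2480 to 3169 in BPA livers 918, 977 and 984. Sums of macrophage markers and of fibroblast and stellate markers were also lowest in these 3 livers. The part of ONECUT factors in the cholangiocyte values was not tested. In muscle 8 of 19 regulators were higher and 11 lower (median -0.02), none called, with CREB3L3 at 55.2 ± 17.3 and 37.6 ± 10.5 (log2 difference -0.54, SE 0.260, adjusted p = 0.662).

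Genes whose pattern over the 8 livers was most like that of each factor were ranked by Pearson's r of log2(value + 1), as a description of points that share library, depth and scaling. Closest to ONECUT2 were NADSYN1, an NAD synthetase (r = 0.993), the zinc finger gene ZNF331 (r = 0.991), the polycomb-related SFMBT2 (r = 0.990), RNASEH1 (r = 0.986) and the ciliary BBSome gene BBS1 (r = 0.986). Their liver differences were 1.35, 0.98, 0.81, 0.51 and 0.86, and without 902 and 910 they were 1.65, 1.08, 0.95, 0.60 and 0.99. Among the genes closest to PROX1 was BORCS8 (r = 0.994). HNF4A was closest to PATZ1 and SOWAHC (r = 0.995 and 0.993), ONECUT1 to SETMAR and PDE3B (r = 0.988 and 0.979), and CEBPA to CASTOR1 and HSD17B2 (r = 0.989 and 0.989). FOXA1 was closest to VAMP1 and GUCD1 (r = 0.991 and 0.990), FOXA2 to LRRC61 and CRIP3 (r = 0.989 and 0.984), and FOXA3 to HDHD3 and GSTZ1 (r = 0.997 and 0.996).

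The genes next to each factor in the RefSeq order of assembly ARS-UI_Ramb_v3.0 were also read. FECH, which encodes the last enzyme of haem synthesis and is the second gene on one side of ONECUT2, did not share its muscle difference: it measured 1264 in control and 1257 in BPA muscle (-0.01, SE 0.0954, adjusted p = 0.986). In liver FECH was at -0.51 (SE 0.613, adjusted p = 0.655). TTC6, next to FOXA1, was at 30.2 in control and 149 in BPA liver (2.07, SE 0.500, adjusted p = 0.256). LOC105616575, a long non-coding RNA next to PROX1, was at 19.9 and 85.7 (1.83, SE 0.584, adjusted p = 0.256). LOC114117503 and LOC114117582, long non-coding RNAs beside FOXA2, were at 12.3 and 36.8 (1.53, SE 0.430, adjusted p = 0.256) and at 48.3 and 85.6 (0.91, SE 0.453, adjusted p = 0.304). ARPP19, a phosphatase inhibitor gene beside ONECUT1, was at 268 and 116 (log2 difference -1.44, SE 0.439, adjusted p = 0.256). None passed the test over all livers. In the fit without 902 and 910, FECH was at -1.53 (adjusted p = 0.000785), TTC6 at 2.62 (adjusted p = 0.000785), LOC105616575 at 1.87 (adjusted p = 0.0213), LOC114117503 at 1.82 (adjusted p = 0.00659) and ARPP19 at -1.79 (adjusted p = 0.00246), and LOC114117582 was at 0.73 (adjusted p = 0.0594). Whether the counting used strand is not given in the sources used here, so reads of a factor and of an overlapping antisense RNA cannot be told apart.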

How the data were processed

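Liver and muscle of 8 sheep gave 16 libraries. The authors deposited 1 signal value per gene and library, a read count divided by the library's size factor. Per the labels' protocols, a low-input kit was used on RNA depleted of ribosomal RNA. The submitters' processing notes name Trimmomatic, FastQC and DESeq2 1.24.0. The aligner, counter, annotation, build and strand setting were not given in the sources used here. Dividing a column by its smallest step gave back whole reads: 99.993% or more of the values in each library lay within 0.1 read of a whole number. Totals were 4391896 to 28540671 reads per library, and counting error is largest for genes with few reads. No column was left unused. The RefSeq gene table (ARS-UI_Ramb_v3.0), which held 22250 of the 28524 names, served for names and gene order only.

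The members and lists were chosen with earlier results of these data known. Groups came from the labels. Values were tested with limma 3.58.1 (R 4.3.3; eBayes with intensity trend) on log2(value + 1) where a gene's mean reached 10, with BH adjustment over all genes and a threshold of 0.05. Each tissue was fitted alone, and liver against muscle and the difference between BPA effects in a 4-group fit. All adjusted p-values come from limma. The members get no p. Separate sheep are the replicates. Genes named were the 8 members, the 2 smallest p-values per direction in each list, a panel (ALB, TTR, APOA1, G6PC, PCK1, TAT, SOX9, KRT19, LYVE1), and the most similar genes over livers (5 for ONECUT2, 2 for others); neighbours and FGB were named after their values were seen. A few genes that this rule selects are left out. Alternatives were pseudocounts of 5 and 0.5, no filter, TMM, edgeR 4.0.16 and DESeq2 1.42.0 on recovered reads, leaving out libraries, 1 fit of all libraries, and the animal as a block. Values of lists and other genes without livers 902 and 910, and of the markers without fibrinogen, were added after seeing the data. The scripts were tested on simulated data. The sheep number pairs the tissues per the labels; deviations from group means correlated between an animal's own tissues by -0.101 to 0.118 across genes, so the pairing rests on the labels.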

Additional observations from a re-analysis of the deposited data

Results flagged for a closer look

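Of 68 groups of 4 libraries examined for the 8 factors and the panel genes, 17 held a library whose gap to the nearest of the others passed Dixon's 95% critical value. Chance flags about 1 in 20 groups, and the flags are not independent, since most come from the same sheep.

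Control liver 902 was far below the other 3 controls for FOXA3 (62.2 against 684 to 786) and PROX1 (3610 against 7077 to 7617). It was also far below them for ALB, serum albumin (10447 against 677303 to 739640), TTR (358 against 20911 to 25115), APOA1 (1114 against 37479 to 43421) and G6PC, the last enzyme of glucose release (844 against 5192 to 5599). In muscle the same sheep was above the other controls, for ONECUT2 (95.0 against 61.5 to 65.7), HNF4A (95.0 against 39.6 to 48.2), ALB (7747 against 4401 to 4662), G6PC (75.5 against 30.5 to 31.2) and PCK1 (237 against 95.7 to 119).

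BPA liver 910 stood apart from the other 3 BPA livers. It was lower for ONECUT2 (6492 against 9416 to 9758). It was higher for FOXA3 (686 against 252 to 324), CEBPA (1353 against 739 to 802), TTR (21391 against 1362 to 2400) and APOA1 (33486 against 5267 to 10069).

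In the remaining case KRT19 was higher in BPA muscle 910 (22.3 against 7.67 to 9.83).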

How the results depend on the processing

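Over all genes, the limma count for BPA in liver was 0. It was 196 with DESeq2, 2299 with all 16 libraries in 1 fit, 6594 without control 902 and BPA 910, and 0 to 2595 leaving out 1 library, the 2595 being without BPA 910. In muscle it was 19, against 131 with DESeq2, 0 with all 16 libraries in 1 fit, and 11 (without BPA 984) to 31 (without BPA 910) leaving out 1 library. For the difference between BPA effects it was 0, against 148 with DESeq2 and 0 to 3020 leaving out 1 sheep, the 3020 being without 910, with 4 without 902 and 1 without 908. Liver against muscle gave 11420 calls and 10701 to 11694 leaving out 1 sheep. The animal as a block left 11091 calls between tissues and 0 for the difference of effects, and no member's call changed. edgeR moved the median of all genes between tissues from 0.06 to 0.20. The cause of these changes was not tested.

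Of 368 alternative values of the 8 factors, 365 moved by less than 1 SD between replicates and 3 by more. In liver the sign changed for HNF4A in 5 of 16 alternatives, FOXA2 and FOXA3 in 3 each, and FOXA1 and CEBPA in 2 each. In muscle it changed for PROX1 in 4 of 15 and for HNF4A and CEBPA in 1 each. For the difference between tissues it changed for HNF4A and CEBPA in 1 of 15 each. Few reads limit the FOXA factors and ONECUT1 in muscle. Leaving out livers 902 and 910 lowered the median of the HNF4A targets from -0.27 to -1.30 and of the hepatocyte markers from -0.40 to -2.05.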
